A study of Mus musculus x Mus spretus with 8 samples.

Results

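RNA of the 2 cell lines labelled as Pygo1 knockouts was compared with that of wild type (WT) across all genes, and the reads of each parental genome were used to tell a change of a gene from a change in the dose of its chromosome. The comparison was chosen by the genotype labels alone and holds 4 of the 8 libraries of the series, 2 of each label. All libraries come from Patski, a female fibroblast line of a C57BL/6 X SPRET/EiJ (Mus musculus x Mus spretus) hybrid, grown in the same medium, with nothing said of any treatment. The Pygo1 group carries the genotype pygo1 -/-, and per the series description its libraries are independent mutants, named line 1 (replicate 1) and line 2 (replicate 2) here. How the WT pair was made is not stated. All p-values here therefore rest on the spread between libraries, which may be technical in WT and in other pairs. The pairs differed in tightness, with a median chi-square per gene of 2.43 in the Rlim-labelled, 5.70 in the WT, 24.2 in the Pygo1-labelled and 73.9 in the Stc1-labelled pair. The other libraries, 2 labelled Stc1-KO and 2 labelled Rlim-KO, entered the fit for its estimate of spread. Because the parents differ at many bases, a read that spans such a base can be assigned to genome 1 or genome 2, and which parent is genome 1 is not stated in the labels.

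Pygo1 and its relative Pygo2 encode nuclear proteins that read methylated histone H3 and bind BCL9 or BCL9L, which in turn bind beta-catenin. When a Wnt ligand reaches a Frizzled receptor and an LRP coreceptor, beta-catenin escapes degradation, enters the nucleus and joins TCF/LEF factors at target genes such as Axin2. Pygopus proteins act as cofactors of that complex, and Pygo1 and Pygo2 overlap in function in mammals.

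The 4 libraries held 74346218 to 81500061 counts, of which 50.6 to 52.6% carried a genome. Genome 2 made up 51.3 and 51.5% of such reads in WT, but 47.0 and 46.6% in lines 1 and 2. Markers of the labelled cell type were mixed. Vim stood at 832 to 1279 and Fn1 at 2229 to 4561 CPM (counts scaled to a common library size), whereas Col1a1 stayed between 2.03 and 8.19 CPM and 3 of 10 fibroblast markers (Col1a2, Lum and Thy1) were too low to test. Kidney tubule markers were abundant in WT, with Aqp1 at 5047 and 5470, Cdh16 at 1781 and 1894 and Lrp2 at 584 and 570 CPM. The leukocyte marker Ptprc did not exceed 0.063 CPM in any of the 4 libraries, and none of 4 lymphocyte markers passed the expression filter.

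Pygo1 (chromosome 9, 72925645 to 72952181, GRCm38) was measured first, as the targeted gene. It stood at 2.49 and 2.44 CPM in WT, at 2.50 in line 1 and at 0.674 in line 2. Line 1 lay above WT and line 2 below it, so the groups overlapped. No change was called, a call being an adjusted p under 0.05 (log2 fold change -0.63 ± 0.84, SE, 2 libraries a label; quasi-likelihood test of edgeR, adjusted p = 0.715). Without line 2 the log2 value was 0.018. All but 1 of the genome-assigned Pygo1 reads came from genome 1, with 132 and 136 such reads in WT, 156 in line 1 and 32 in line 2. The library of line 1 is thus one labelled as a knockout in which the RNA of its target was not lower, and whether that RNA encodes an intact protein cannot be read from gene counts.

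Pygo2 (chromosome 3, 89430214 to 89435128) showed how far a total can hide its parts. Its level was 156 and 168 CPM in WT, 187 in line 1 and 282 in line 2, higher in both lines but not called (log2 0.53 ± 0.20; edgeR, adjusted p = 0.199). Its genome 2 reads fell from 1612 and 1818 to 19 and 22, and its genome 1 reads rose from 5835 and 6541 to 9508 and 13325. Both genomes passed their own tests (genome 1 log2 0.94, adjusted p = 0.0345, and genome 2 log2 -6.33, adjusted p = 0.000106; edgeR), as did the difference in genome share (edgeR, adjusted p = 3.02e-05). Bcl9, the adaptor between pygopus and beta-catenin, lies on the same chromosome and kept its total at 119 and 122 CPM in WT and 116 and 138 in the lines, with genome 2 reads that fell from 1052 and 1098 to 15 and 7. Its relative Bcl9l, which overlaps Cxcr5, was measured at 107 and 115 CPM in WT and 169 and 137 in the lines, with no call (edgeR, adjusted p = 0.477). Beta-catenin itself (Ctnnb1, which overlaps Ulk4) was measured at 355 and 339 CPM in WT and 362 and 338 in the lines (log2 0.01 ± 0.16). None of the 18 listed genes of the pygopus, BCL9 and beta-catenin complex was called in all reads by edgeR or by DESeq2, and 5 had an unadjusted edgeR p under 0.05. Without either Stc1-labelled library 4 of the 18 were called higher and 1 lower. Over all genes edgeR called 1.54% higher and 0.807% lower. In genome 2 reads, by contrast, 4 of 16 tested members were lower past the edgeR test, namely Pygo2, Bcl9, Ldb1 and Tcf7l2, on chromosomes 3 and 19, beside 8.0% of all genes tested in genome 2 reads.

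Outside the complex, 1 of 30 tested Wnt ligands, receptors and inhibitors was called. This was Wls, the carrier that takes Wnt proteins to the cell surface, at 101 and 97.9 CPM in WT and 171 and 174 in the lines (1.73-fold; log2 0.79 ± 0.11; edgeR, adjusted p = 0.022). Its neighbours on distal chromosome 3 were higher by a similar amount, and with each gene scaled to its neighbourhood the log2 value of Wls became -0.27 (edgeR, adjusted p = 0.619). Of the list, 0 genes were called without either WT or either Rlim-labelled library (5 to 7 at an unadjusted edgeR p under 0.05), and 5 were called higher and 5 lower without either Stc1-labelled library. No Wnt ligand was called, and Wnt7b, which overlaps AU022754, stood at 738 and 816 in WT and 745 and 1022 in the lines.

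Of 23 tested target genes of beta-catenin, 3 rose and none fell, with a median log2 fold change of 0.37 against -0.0013 over all genes. Of all genes 1.54% were called higher and 0.807% lower. Fosl1, an AP-1 subunit on chromosome 19 that overlaps Ccdc85b, rose from 15.95 and 16.98 CPM to 51.5 and 42.9 (adjusted p = 0.00872 in edgeR, 2.87-fold). Notum, a secreted enzyme that inactivates Wnt ligands and overlaps antisense transcripts, rose from 0.221 and 0.276 to 2.09 and 1.23 CPM (edgeR, adjusted p = 0.0323), and Ascl2 was called from 0.0391 and 0.0251 CPM in WT and 0.34 and 0.275 in the lines. Axin2, the negative feedback gene of the pathway, which overlaps Gm11670, was at 3.78 and 3.56 CPM in WT and at 14.04 and 14.6 in the lines. The lines lay above WT without overlap, and the change was not called (log2 1.96 ± 0.71; edgeR, adjusted p = 0.189). DESeq2 called 5 of the 23 target genes higher and none lower. No target was called without WT replicate 1 or WT replicate 2 (4 each at an unadjusted edgeR p under 0.05), 1 and 2 were called higher without line 1 and line 2, 1 without either Rlim-labelled library, and 12 higher and 1 lower without either Stc1-labelled library.

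The dose of each chromosome was read as a median genome 2 share, taken over the genes that had 50 or more genome-assigned reads in each library. In both lines chromosome 3 had lost nearly all genome 2 RNA, with a median share of 20.7 and 20.8% in WT and 0.25 and 0.164% in lines 1 and 2. Chromosome 6 went from 28.0 and 28.1% to 5.07 and 0.216%, and chromosome 19 from 24.6 and 24.4% to 8.4 and 0.433%. Line 2 alone had lost genome 2 on chromosome 5 (26.0% in both WT libraries, 21.9% in line 1, 0.171% in line 2). Line 1 alone had lost it on chromosome 14 (37.5% in both WT libraries, 0.758% in line 1, 49.1% in line 2). The WT libraries differed by less than 1 percentage point on every chromosome.

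**Figure D1:**
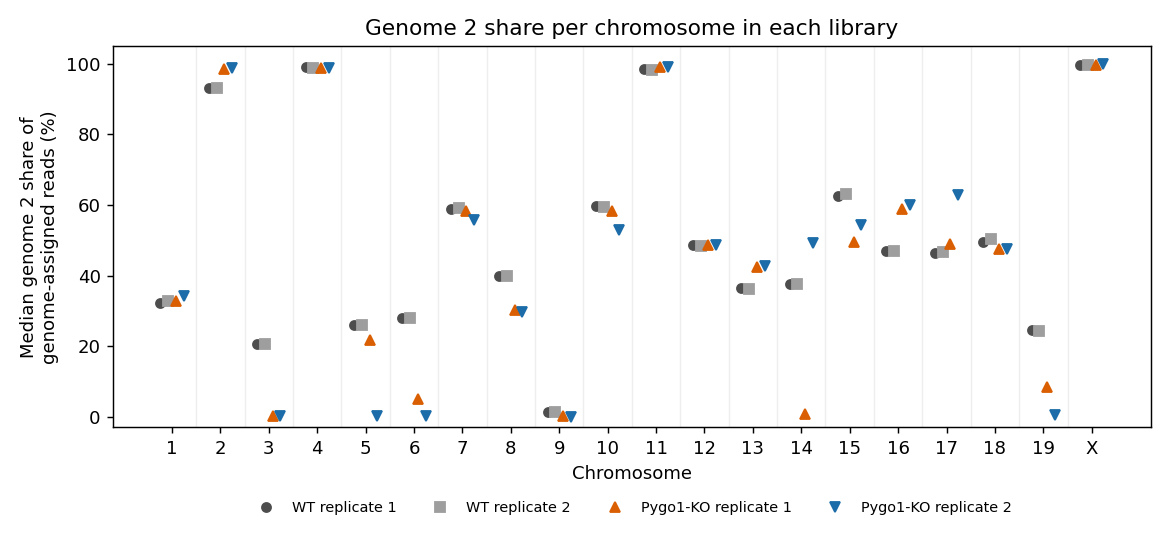
Median genome 2 share (%) of genome-assigned reads per chromosome, over genes with 50 or more such reads in each library, with 1 symbol per library. The WT symbols lie side by side at nearly the same height on every chromosome, whereas both Pygo1-labelled lines lie near 0 on chromosome 3, line 2 on chromosome 5 and line 1 on chromosome 14.

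Smaller shifts affected other chromosomes. On chromosome 16 the share went from 47.1% in both WT libraries to 58.9 and 59.9%, and on chromosome 15 from 62.6 and 63.0% to 49.4 and 54.3%. On chromosome 17 line 2 moved to 62.7% from 46.5 and 46.6% in WT, while line 1 stood at 48.8%. Chromosome 8 shifted in its distal part: between 80 and 100 Mb the share was 44.6 and 44.3% in WT and 30.0 and 29.8% in the lines, against 39.1 and 38.2% in WT and 37.3 and 38.9% in the lines between 60 and 80 Mb. Chromosomes 4, 9 and 11 carried almost 1 genome in WT, at 98.9 and 98.7%, 1.35 and 1.35%, and 98.4 and 98.2% genome 2. On chromosome 2, at 93.2 and 93.1% in WT, the minor genome 1 was further reduced in both lines, to a genome 2 share of 98.6 and 98.7%.

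Where genome 2 was lost, the level of genome 1 was higher on some chromosomes and not on others. On chromosome 3 the median log2 change of genome 1 reads was 0.36 and 0.61 in lines 1 and 2, and that of all reads 0.03 and 0.31. On chromosome 5 in line 2 the genome 1 median was 0.41 and that of all reads -0.04. On chromosome 6, by contrast, the genome 1 median was 0.07 and 0.12 and that of all reads -0.33 and -0.31. On chromosome 14 both lines ended at a similar lower total (-0.36 and -0.29) through different genomes, with genome 2 absent in line 1 and genome 1 lower by -0.60 at the median in line 2. These chromosome values are medians over genes, with no test.

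**Figure D2:**
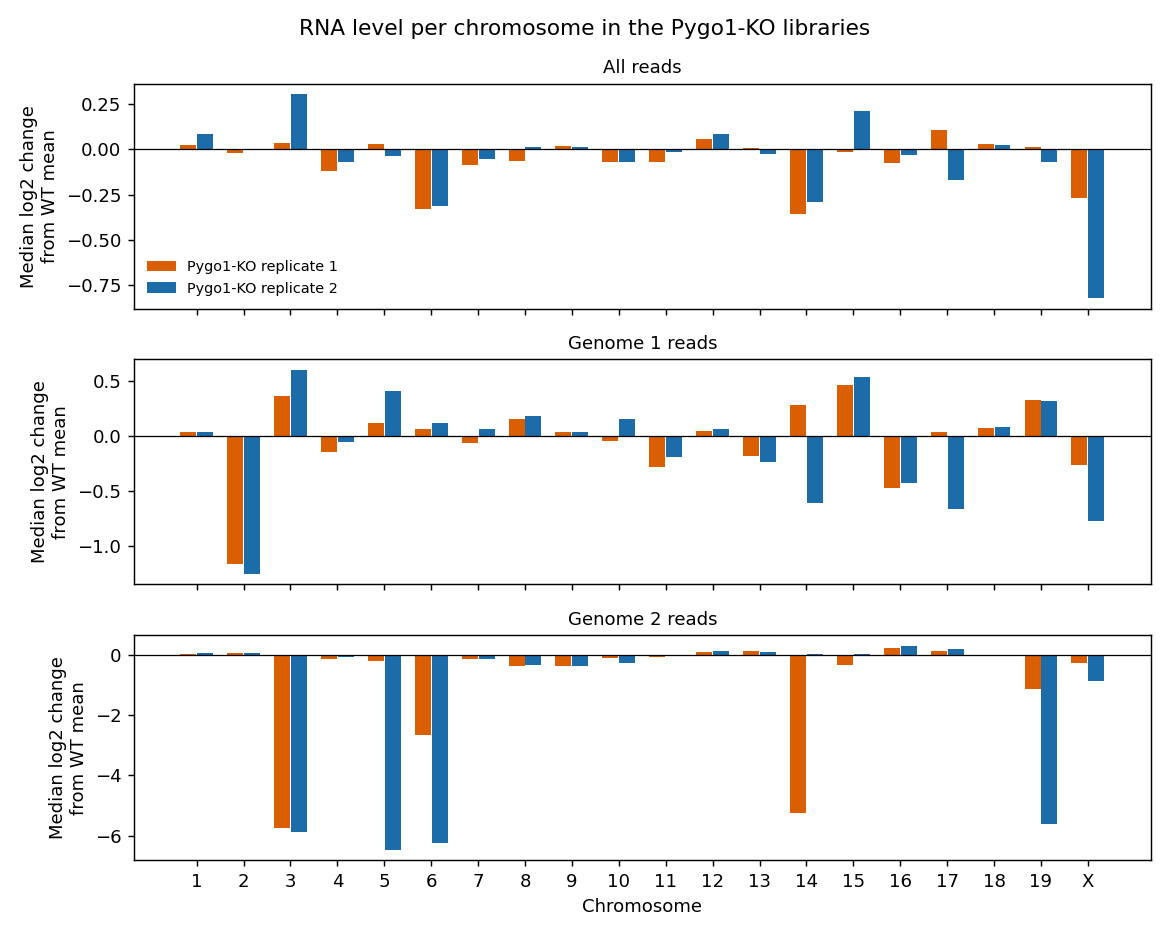
Median log2 change from the WT mean per chromosome in Pygo1-KO replicates 1 and 2 (lines 1 and 2), for all reads, genome 1 reads and genome 2 reads. Genome 2 bars reach below -5 on chromosome 3 in both lines, and the X chromosome shows the largest drop in all reads, -0.82 in line 2. Chromosome and genome pairs with fewer than 20 genes to read have no bar.

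The X chromosome differed in level and not in share. Its median level in all reads was lower by -0.27 in line 1 and by -0.82 in line 2, and its genome 2 share stayed at 99.6 to 99.8% in all 4 libraries. The drop in line 2 spread along the chromosome, with bin medians of -0.76 to -1.03 from 20 Mb on and -0.27 in the first 20 Mb, where line 1 stood at -0.29. Xist, the noncoding RNA that silences an X chromosome and overlaps its antisense Tsix, came almost wholly from genome 1 and stood at 783 and 758 CPM in WT and 390 and 351 in the lines. The groups did not overlap, and the change was not called (log2 -1.06 ± 0.28; edgeR, adjusted p = 0.103). Fewer copies of a chromosome and less RNA from each copy cannot be told apart in bulk libraries, nor can a change in all cells and the loss of a chromosome in some.

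The dose around each gene was read from up to 5 neighbours to its left and 5 to its right, chosen among genes that WT transcribes from both genomes. A neighbourhood was called shifted where its median genome 2 share, as the mean of the lines, differed from the WT mean by at least 10 percentage points. Other neighbourhoods were called steady. Of 17157 autosomal genes with such a value, 5798 (33.8%) lay in shifted neighbourhoods. These included 917 of 917 genes on chromosome 6, 1230 of 1233 on chromosome 5, 547 of 604 on chromosome 19 and 793 of 977 on chromosome 3, but none on chromosomes 4, 9, 11, 12 and 18. On chromosomes 2, 4, 9 and 11 few genes use both genomes, so a steady value there rests on 127, 52, 44 and 83 genes. Taken line by line, 4690 genes were shifted in line 1, 6245 in line 2 and 3825 in both. A shift in 1 line alone could thus be counted as steady. On chromosome 17, 839 of 860 genes were shifted in line 2 and 39 in line 1, but 173 by the mean of the lines.

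In all reads 275 of 17839 genes were called higher (1.54%) and 144 lower (0.807%), and 324 of the 419 changed at least 2-fold. Genome 1 reads gave 539 higher (4.02%) and 724 lower (5.4%) of 13418 genes, and genome 2 reads 288 higher (2.1%) and 1096 lower (8.0%) of 13694. The share of the genomes itself changed in 2489 of 12476 genes tested (20%), which was 34.1% of the genes tested in shifted neighbourhoods and 13.7% in steady ones. Without regard to a test, both lines lay above both WT libraries in 5274 genes (29.6%) and below them in 5531 (31.0%). The number of calls in all reads rested on single libraries, since it was 8 without WT replicate 1, 10 without WT replicate 2, 293 and 201 without line 1 and line 2, 45 without either Rlim-labelled library and 3680 without either Stc1-labelled library. Of the 97 genes selected for description 81 were called, of which 6 or 7 still were without WT replicate 1 or 2. In those fits the remaining WT library is assumed to vary like the other groups.

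Rises and falls were split differently by neighbourhood, which is given as a description. In shifted neighbourhoods 1.28% of genes were called higher and 1.19% lower, and in steady ones 1.73% and 0.572%. A steady share does not mean an unchanged dose, above all where WT used almost 1 genome. Chromosome 2 counted mostly as steady, with genome 1 medians of -1.16 and -1.25. Around Wls, also steady, the median of all reads was 0.60 and 0.61 (chromosome 3, 140 to 160 Mb). Of 826 genome 1 calls in steady neighbourhoods 636 were falls. Where both genome fits called a gene, the genomes moved in opposite directions in 77 of 100 genes in shifted neighbourhoods and in 16 of 88 in steady ones. Of the 88, 56 were higher and 16 lower in both genomes. The scatter of the genomes' changes shows most steady genes near the line of equal change.

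**Figure D3:**
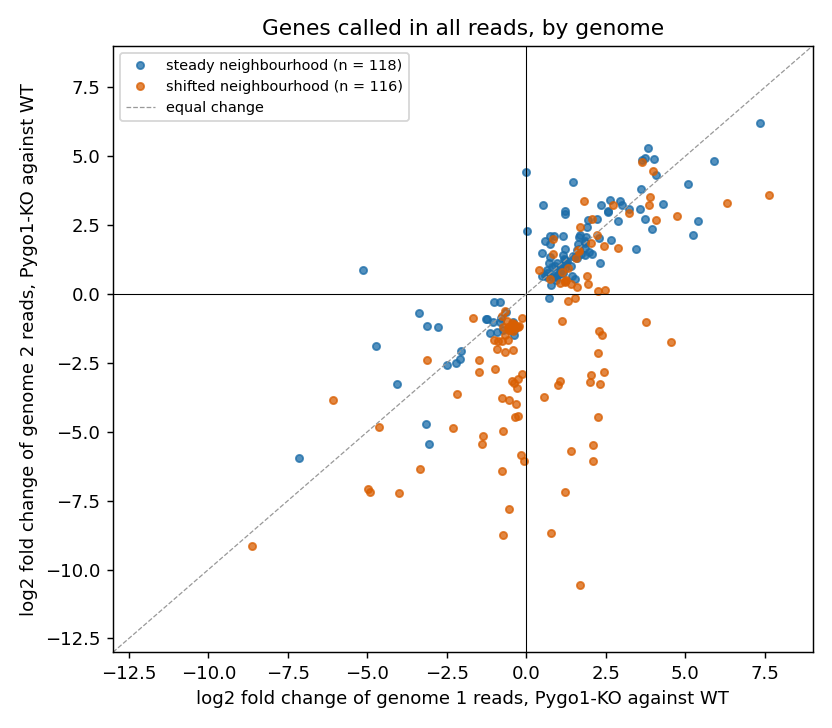
Log2 fold change of genome 1 reads (x axis) and genome 2 reads (y axis) for genes called in all reads that lie where WT uses both genomes and that were tested in both genome fits, 118 in steady and 116 in shifted neighbourhoods. Steady genes lie mainly near the dashed line of equal change, and shifted genes extend below it, where genome 2 fell alone.

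The 419 called genes were sorted by the genome that changed at least 1.5-fold with both lines beyond both WT libraries. Both genomes changed in 155 genes (103 higher, 52 lower), genome 1 alone in 37 (35 higher, 2 lower) and genome 2 alone in 45 (14 higher, 31 lower). A further 134 genes used 1 genome in WT (49 genome 1, 85 genome 2), 1 fell in no class and 47 could not be read by genome. Of the 35 rises in genome 1 alone, 30 lay in shifted neighbourhoods, as did 28 of the 31 falls in genome 2 alone. When each gene was scaled to its 25 tested neighbours on each side, 124 of the 155 genes changed in both genomes kept their call, against 18 of the 35 rises in genome 1 alone and 10 of the 31 falls in genome 2 alone. The classes already differed in strength before scaling. Unscaled, at an adjusted p under 0.01 in edgeR, 24, 3 and 0 genes of these classes stayed called. Kept calls therefore do not measure dose alone. Among genes with both genomes changed, 134 lay where WT uses both genomes (90 higher, 44 lower), and the others rest on reads of a minor genome. For some genes the genome reads did not follow the chromosome. Insig1 and Cxcl5 on chromosome 5 still had 53.1 and 26.2% genome 2 reads in line 2, where the chromosome median was 0.171%. Ccl2 on chromosome 11 had 54.4 to 57.0% in all 4 libraries. Fosl1 on chromosome 19 had 29.3% in line 2 beside a chromosome median of 0.433%, but its neighbourhood had kept 20.5% there. The share of reads assigned to the wrong genome was not tested.

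Among the rises in both genomes at a mean of at least 5 CPM, Nos2, the inducible nitric oxide synthase on chromosome 11, had the largest fold change, from 5.13 and 4.99 CPM in WT to 348 in line 1 and 191 in line 2 (53.3-fold; log2 5.74 ± 0.57; edgeR, adjusted p = 0.00984). Its reads rose in the major genome 2 from 183 and 174 to 13814 and 7299 and in the minor genome 1 from 32 and 42 to 2294 and 1042. Phyh, a peroxisomal enzyme of phytanic acid breakdown, rose 26.4-fold, from 7.88 and 8.39 CPM to 119 and 312. Line 1 was the higher line for Nos2 and line 2 for Phyh, and neither gene's groups overlapped. The genes nearest to Nos2 and Phyh used mostly genome 2 in WT, at a median share of 98.6 and 93.8%. The same holds for Krt17 (95.4%), Wfdc2 (91.9%), Chst1 (91.5%) and Dlgap3 (99.6%). Genome 1 is the minor genome around these genes, so its reads are a weaker check there.

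Other large rises in both genomes included the following genes. Ltbp2, a matrix protein of the latent TGF-beta binding family that overlaps D030025P21Rik, rose 18.98-fold (edgeR, adjusted p = 0.000499), from 11.3 and 11.1 CPM to 203 and 221, with genome 1 at log2 5.07 and genome 2 at 4.01. Serpine2, an inhibitor of serine proteases, rose from 1.15 and 0.965 to 26.3 and 10.8 CPM (17.5-fold), Adamts4, a proteoglycan-cleaving protease that overlaps another gene, from 7.04 and 7.82 to 52.2 and 96.0 CPM (9.97-fold), and Chil1, a secreted chitinase-like protein, from 2.50 and 2.67 to 49.2 and 17.4 CPM (12.9-fold). Serpina3n, a protease inhibitor of the acute phase, rose 8.53-fold, from 1.51 and 1.92 to 15 and 14.3 CPM. The lines agreed closely for Ltbp2 and Serpina3n and less so for Serpine2 and Chil1, where line 1 was more than 2 times as high as line 2.

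Pde1b, a calmodulin-dependent phosphodiesterase, rose from 1.34 and 1.82 CPM to 32.4 and 45.2 (24.6-fold), but unequally: genome 1 rose by 5.41 and genome 2 by 2.65 on the log2 scale, a difference that passed the share test (edgeR, adjusted p = 0.0395). Neurl3, a ubiquitin ligase, rose from 11.7 and 12.4 to 96.7 and 111 CPM (8.6-fold). Its genome 1 reads went from 424 and 480 to 3480 and 3574 and its genome 2 reads from 258 and 298 to 2407 and 2660, and genome 2 did not pass its own test (log2 3.24; edgeR, adjusted p = 0.373). Fetub, a plasma protein of the fetuin family, and Krt17, a keratin, rose 15.9-fold and 22.3-fold from under 2 CPM. The genome 1 reads of Fetub were few, 4 and 8 in WT and 21 and 12 in the lines. They did not pass their own test (log2 1.48; edgeR, adjusted p = 0.188).

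**Figure D4:**
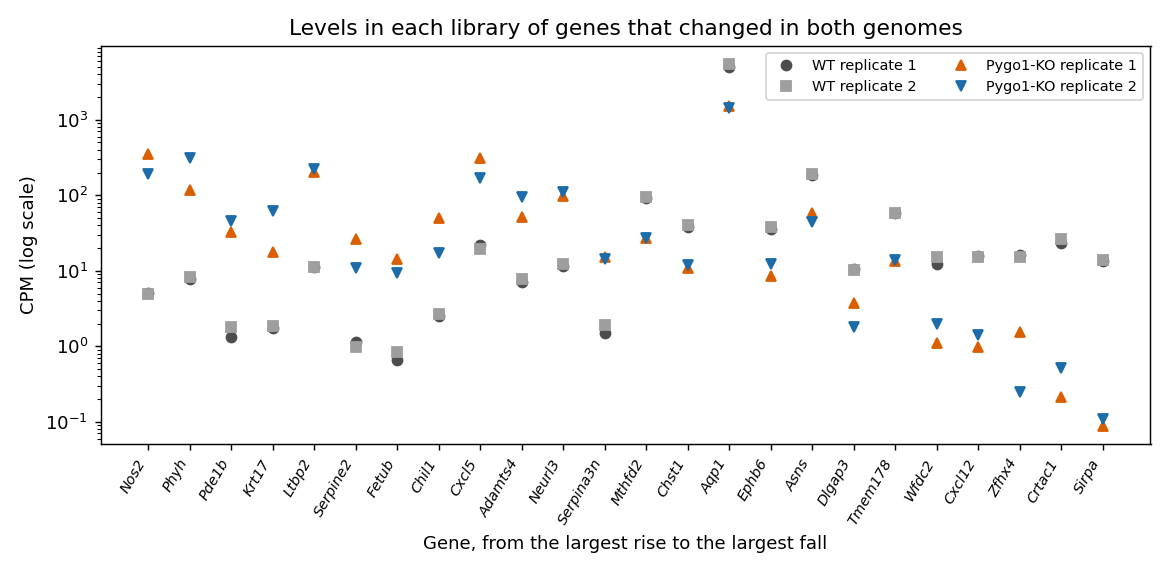
CPM (log scale) in each of the 4 libraries for the 12 largest rises and the 12 largest falls among called genes that changed in both genomes with a mean of at least 5 CPM. Each gene has both lines above or both below WT, from Nos2 (53.3-fold higher) to Sirpa (137-fold lower).

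Among the falls in both genomes, Sirpa (chromosome 2, 129592835 to 129632228), the receptor for the "do not eat me" signal CD47, went from 13.6 and 13.9 CPM to 0.0881 and 0.11, 137-fold lower (log2 -7.10 ± 0.19; edgeR, adjusted p = 2.54e-05). Its genome 1 reads went from 587 and 605 to 6 and 2 and its genome 2 reads from 61 and 82 to 0 and 2. Crtac1, a secreted cartilage protein on chromosome 19 that overlaps AC144792.1, fell 68.5-fold from 23.4 and 26.0 to 0.214 and 0.509 CPM, in genome 1 as well (from 290 and 311 reads to 4 and 15), although the chromosome as a whole had lost genome 2 and not genome 1. Wfdc2, a secreted epithelial protein, fell 8.81-fold, and Tmem178 fell 4.24-fold from 58.5 in both WT libraries to 13.6 and 13.95 CPM, in genome 1 (log2 -2.05) and genome 2 (log2 -2.08). Chst1, a sulfotransferase on chromosome 2, fell 3.45-fold.

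Several of these falls lay on chromosome 6, which had lost most of genome 2. Aqp1, the water channel of the proximal tubule, fell 3.51-fold to 1544 and 1452 CPM. Its genome 2 reads went from 71910 and 81324 to 3434 and 139, and its genome 1 reads also fell, from 197297 and 222487 to 82409 and 73564 (log2 -1.39; edgeR, adjusted p = 0.0479). Asns, asparagine synthetase, fell from 188 and 194 to 58.7 and 44.0 CPM, and Mthfd2, a mitochondrial folate enzyme, from 93.0 and 94.1 to 27.0 and 27.3 CPM, with genome 1 values of -1.49 and -1.35 that did not pass on their own (edgeR, adjusted p = 0.0713 and 0.0501). Scaled to their neighbourhoods, Aqp1, Asns and Mthfd2 kept a call, at log2 -1.37, -1.50 and -1.42 (edgeR, adjusted p = 0.00411, 0.0143 and 0.0029). The chemokine gene Cxcl12 fell from 15.8 and 15.1 to 0.981 and 1.43 CPM, and Zfhx4, a zinc finger factor on chromosome 3, from 16.1 and 15.2 to 1.54 and 0.248 CPM. Cxcl12 passed in neither genome (edgeR, adjusted p = 0.097 and 0.096), with 11 and 78 genome 1 reads and 51 and 1 genome 2 reads in lines 1 and 2. Zfhx4 did not pass in genome 1 (edgeR, adjusted p = 0.099). Zfhx4 and Tmem178 had log2 values of -3.91 and -1.83 under that scaling, against -4.12 and -2.08 unscaled, and were not called (edgeR, adjusted p = 0.0541 and 0.0779).

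Falls in genome 2 alone lay mostly on the chromosomes that had lost that genome. Ogg1, a DNA glycosylase on chromosome 6 that overlaps Camk1, fell from 18.3 and 20.3 to 8.28 and 7.73 CPM. Its genome 2 reads went from 447 and 502 to 84 and 26 and its genome 1 reads from 329 and 333 to 263 and 272. C1galt1 and Mpp6 on the same chromosome fell 2.27-fold and 2.19-fold, with genome 1 at log2 -0.44 and -0.37. Plekhs1 on chromosome 19 kept 0 and 1 genome 2 reads of 272 and 248, while its genome 1 reads went from 102 and 85 to 164 and 148, and its level fell 2.37-fold to 2.97 and 3.30 CPM. Scaled to the neighbourhood, the log2 value of Plekhs1 was -1.20 against -1.24 unscaled and that of C1galt1 -0.78 against -1.18, without a call (edgeR, adjusted p = 0.119 and 0.071). Ogg1 and Mpp6 kept a call at -1.09 and -1.03 (edgeR, adjusted p = 0.0136 and 0.0152).

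Some rises in genome 1 alone were far larger than those of their neighbours. Steap4, a metalloreductase on chromosome 5, rose from 0.716 and 0.777 to 65.9 and 24.8 CPM (60.7-fold). In line 1, where chromosome 5 kept both genomes, genome 2 reads went from 9 and 14 to 229 as well, and in line 2 a single one was left. Cxcl1, the neutrophil chemokine, followed the same course on that chromosome, from 5.73 and 5.96 to 94.8 and 71.7 CPM, with 33 and 47 genome 2 reads in WT, 910 in line 1 and 16 in line 2. Csf1, the macrophage growth factor on chromosome 3, rose from 415 and 447 to 960 and 1797 CPM, with genome 1 higher by log2 2.10 and genome 2 at -6.07. Smad9, a BMP signal transducer also on chromosome 3, rose 2.94-fold through genome 1 (63 and 74 to 300 and 348 reads) as genome 2 fell (46 and 61 to 17 and 23). Scaled to the neighbourhood, Steap4, Cxcl1 and Smad9 kept log2 values of 5.95, 3.60 and 1.51 (edgeR, adjusted p = 0.00411, 0.00146 and 0.00968).

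In neighbourhoods counted as steady a few genes rose through 1 genome. Kng1, the kininogen gene on chromosome 16, rose 7.72-fold from 4.22 and 4.27 to 37.8 and 27.8 CPM through genome 2 (208 and 206 to 2336 and 1477 reads), while genome 1 went from 48 in both WT libraries to 70 and 64, and the share differed (edgeR, adjusted p = 0.0129). The neighbourhood of Kng1 moved in the same direction, from 46.9% genome 2 in WT to 55.1 and 55.2% in the lines, which is under the limit for a shift. Lcn2, the iron-binding lipocalin 2 on chromosome 2, rose from 61.5 and 62.1 to 1135 and 913 CPM, which was 16.6-fold (adjusted p = 0.000181 in edgeR). Its genome 2 reads rose from 2864 and 3001 to 63019 and 46493 as its genome 1 reads fell from 423 and 462 to 80 and 67. On that chromosome the median log2 change of the minor genome 1 was -1.16 in line 1 and -1.25 in line 2.

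For genes that use 1 genome in WT no second genome can serve as a check. The serum amyloid A genes on chromosome 7, acute phase proteins that are near copies of each other and so uncertain in counting, were among the rises of this kind. Saa3 went from 3.01 and 3.11 to 307 and 107 CPM (67.7-fold), almost all of it genome 2, and Saa1 from 0.0651 and 0.0501 to 33.3 and 5.90 CPM. Mlxipl, the glucose-responsive factor ChREBP, rose 12.4-fold and overlaps Gm43500, and Pth1r, the parathyroid hormone receptor, rose 6.95-fold and overlaps Myl3, each with line 2 above line 1. Scaled to its neighbourhood Pth1r had nearly the same log2 value, 2.73 against 2.80, and was not called (edgeR, adjusted p = 0.0588). Fxyd2 (chromosome 9, 45399669 to 45410278), the gamma subunit of the Na,K-ATPase of kidney, fell from 73.2 and 79.6 to 0.705 and 0.702 CPM, 108-fold lower (log2 -6.76 ± 0.16; edgeR, adjusted p = 2.4e-05). Gstm4, a glutathione transferase on chromosome 3, fell from 15.4 and 16.7 to 0.126 and 0.0826 CPM, and Ucp2, a mitochondrial carrier that overlaps Dnajb13, fell 4.71-fold, from 90.4 and 96.1 to 20.6 and 19.03 CPM. The lines lay close to each other for Fxyd2 and Ucp2 and far from WT.

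Chemokines had the highest median of all lists. Of 18 tested chemokine genes 6 rose and 1 fell, with a median log2 fold change of 2.08 against -0.0013 over all genes. For this and the lists below, 1.54% of all genes were called higher and 0.807% lower. Cxcl1, Cxcl3, Cxcl5 and Cxcl11 on chromosome 5, Ccl2 on chromosome 11 and Ccl20 on chromosome 1 rose, and Cxcl12 fell. Cxcl5 went from 22.2 and 19.7 to 310 and 170 CPM (11.5-fold), although chromosome 5 had lost genome 2 in line 2, where 1727 genome 2 reads were left against 356 in each WT library. Ccl2, the monocyte chemokine, rose 4.37-fold from 67.4 and 65.0 to 313 and 267 CPM, in both genomes. No chemokine gene was called without WT replicate 1 or 2 (9 at an unadjusted edgeR p under 0.05 each), 3 were called higher without either Rlim-labelled library, 4 and 3 without line 1 and line 2, and 10 higher and 1 lower without either Stc1-labelled library.

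Of 27 tested cytokine and NF-kB target genes 9 rose and none fell (median log2 1.595). Besides Nos2 and Csf1 these were Zc3h12a, Tnfrsf9, Nfkb1, Lif, Tnfaip3, Nfkbia and Csf2. Zc3h12a, whose product cuts the messages of cytokines, went up 4.22-fold to 56.1 and 41.5 CPM, and the inhibitors of NF-kB Tnfaip3 and Nfkbia rose 3.29-fold and 3.02-fold in both genomes alike (log2 1.63 and 1.80, and 1.61 and 1.58). Nfkb1 rose 2.22-fold, and its log2 value of 1.15 was 0.56 once scaled to its neighbours on distal chromosome 3 (edgeR, adjusted p = 0.031). DESeq2 called 16 of the 27 higher. Calls fell to 0 without either WT library (15 and 17 at an unadjusted edgeR p under 0.05), to 2 without either Rlim-labelled library and to 5 and 6 without line 1 and line 2, and reached 19 without either Stc1-labelled library. Of 20 genes of the acute phase and of iron handling 6 rose, namely Lcn2, Serpina3n, Steap4, Saa1, Saa2 and Saa3 (median log2 1.03). That count was 1 without either WT library, 3 without either Rlim-labelled library and 13 without either Stc1-labelled library. Among 43 interferon response genes 3 rose, with a median of 0.84. These were Ifi203, which overlaps Mndal, Ifi204 and Trim30a, all under 4 CPM in every library, of which Ifi204 was at log2 2.15 in place of 2.40 and not called when scaled to its neighbourhood (edgeR, adjusted p = 0.0565). Of 13 complement genes Cfb, a protease of the alternative pathway that overlaps Gm20547, rose from 0.0911 and 0.0752 to 0.604 and 0.427 CPM (median of the list 0.62). No interferon or complement gene was called without either WT library (6 and 8, and 2 each, at an unadjusted edgeR p under 0.05). Without a line or a Rlim-labelled library 1 interferon gene and no complement gene was called, and without a Stc1-labelled library 17 or 18 interferon genes were higher and 2 lower, and 5 complement genes were higher and 1 lower.

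Of 5 macrophage markers tested 1 was called. Cd68, a lysosomal protein, rose from 1.81 and 2.39 to 7.61 and 6.52 CPM, while Csf1r stood at 49.5 and 50.7 CPM in WT and 33.4 and 36.1 in the lines and Ptprc stayed near 0. The summed level of the macrophage markers was 104 to 110 CPM in WT and 87.3 to 112 in the lines, and Adgre1, Itgam and Tyrobp were too low to test. Endothelial markers summed to 1.61 to 1.70 CPM in WT and 1.5 to 6.996 in the lines, with Kdr, Tek and Emcn too low to test. Whether other cells had a part in the inflammatory rises was not tested beyond these sums.

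Sterol genes had the lowest median of the 25 lists plotted by median. Of 26 tested genes of cholesterol synthesis and uptake 6 fell and none rose, 24 had a negative log2 value and the median was -0.52. Both lines lay below both WT libraries in 21 of the 26, against 31.0% of all genes. Insig1, the sterol-regulated brake on SREBP processing, fell from 28.8 and 28.6 to 10.5 and 10.4 CPM (2.74-fold lower; edgeR, adjusted p = 0.00984), with genome 1 at log2 -1.01 and genome 2 at -1.68. Cyp51, which overlaps Akap9, fell 2.39-fold, Fdft1, which overlaps Ctsb, 1.99-fold and Mvd, on the shifted part of chromosome 8, 1.69-fold. These genes encode enzymes between acetyl-CoA and cholesterol. Nsdhl on the X chromosome fell 2.34-fold beside a lower level of the whole chromosome. Scaling to the neighbourhood gave 7 falls and a median of -0.67, and left Nsdhl without a call at log2 -0.66, against -1.22 unscaled (edgeR, adjusted p = 0.0785). No sterol gene was called without a WT or a Rlim-labelled library (11 to 14 at an unadjusted edgeR p under 0.05), 1 and 3 were without line 1 and line 2, and 18 without either Stc1-labelled library.

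Of 32 genes of the ATF4 and unfolded protein response 5 fell and none rose (median -0.26). Besides Asns and Mthfd2 these were Chac1, a glutathione-degrading enzyme, Trib3, a pseudokinase, and Slc7a5, an amino acid transporter on the shifted part of chromosome 8. Chac1 fell 3.27-fold from 90.7 and 103.2 to 33.3 and 26.0 CPM and Trib3 fell 2.24-fold, both on chromosome 2 with genome 2 at log2 -1.63 and -1.09. The chaperone Hspa5 stood at 478 and 441 CPM in WT and 557 and 625 in the lines, with no call (edgeR, adjusted p = 0.208). The calls of this list rested on single libraries. They were lost without line 2, either WT library or either Rlim-labelled library, whereas some members were called lower without line 1. More were called, in both directions, without a Stc1-labelled library. The median of the list was -0.28 without line 1 and -0.28 without line 2. With each gene scaled to its neighbourhood the list had 5 falls, 1 rise and a median of -0.09.

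**Figure D5:**
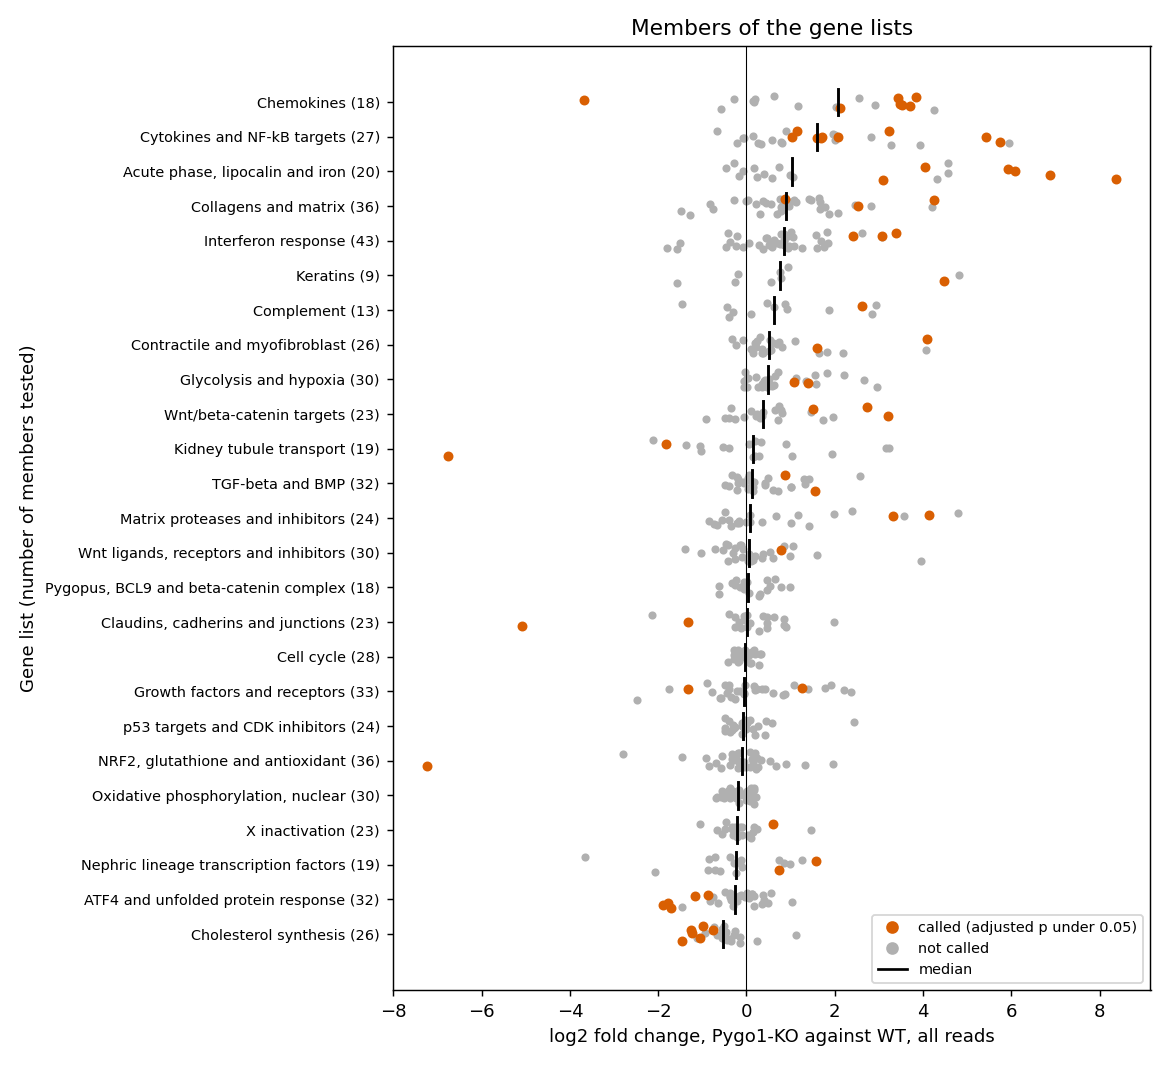
Log2 fold change in all reads of each tested member of 25 gene lists, with called members coloured and the median of each list as a bar, ordered by median. Chemokines have the highest median (2.08) and cholesterol synthesis the lowest (-0.52).

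Of 36 collagen and matrix genes 3 rose (Ltbp2, Col15a1 and Fn1, the last overlapping Apol7d; median 0.89), and 30 had a positive log2 value. Fn1 was at log2 0.73 in place of 0.87 and not called when scaled to its neighbourhood (edgeR, adjusted p = 0.0986). Fibroblast markers summed to 3177 to 3302 CPM in WT and 5098 to 5406 in the lines. Fn1 alone made up 2229 and 2343 CPM of these sums in WT and 3808 and 4561 in the lines. Of 7 tested markers 6 were above 0 on the log2 scale, with a median of 1.66. The part of these markers in the collagen and matrix list was not tested. Of 24 matrix proteases and inhibitors Serpine2 and Adamts4 rose (median 0.08), of 26 contractile genes Lmod1 and Synpo2 (median 0.52), and of 32 TGF-beta and BMP genes Smad9 and Id1 (median 0.13). Lmod1, which nucleates actin filaments in smooth muscle, rose from 0.247 and 0.388 to 4.69 and 6.15 CPM. Among 30 glycolysis and hypoxia genes 2 rose, Pfkl from 222 and 233 to 688 and 514 CPM (2.64-fold) and P4ha1 from 61.6 and 60.9 to 113 and 144 CPM (2.09-fold), each in both genomes, and 27 had a positive value. Scaling to the neighbourhood gave 6 rises among them. Of 19 kidney tubule transport genes Fxyd2 and Aqp1 fell (median 0.14), and of 23 junction genes Cldn2 and Cdh1 (median 0.02). Kidney tubule markers summed to 7485 to 8014 CPM in WT and 3358 to 3718 in the lines, and Aqp2, Slc34a1 and Umod were too low to test. Aqp1 alone, on chromosome 6, made up 5047 and 5470 CPM of these sums in WT and 1544 and 1452 in the lines. Of the 4 markers tested 1 had a positive log2 value. Of 6 epithelial markers only Cdh1 was called, and their sum was 43.2 to 46.7 CPM in WT and 56.4 to 59.9 in the lines. Cdh1, epithelial cadherin, went from 9.52 and 8.91 to 0.201 and 0.344 CPM, 33.7-fold lower, and Cldn2 on the X chromosome fell 2.52-fold but was not called when scaled to its neighbourhood (log2 -0.93 against -1.33 unscaled; edgeR, adjusted p = 0.138). Of 19 nephric transcription factors Gata3 and Tfcp2l1 rose (median -0.23), of 9 keratins Krt17 (median 0.77), of 23 X inactivation genes Ciz1 (median -0.22), and of 36 antioxidant genes Gstm4 fell (median -0.10). With each gene scaled to its neighbourhood, Gata3, Tfcp2l1 and Ciz1 were at log2 1.46, 0.64 and 0.39, against 1.57, 0.75 and 0.61 unscaled, and were not called (edgeR, adjusted p = 0.0637, 0.0758 and 0.174). Of 33 growth factors and receptors Nrg1 rose 2.40-fold and Fgfr3 fell 2.49-fold (median -0.06). Beside these counts stand 1.54% higher and 0.807% lower over all genes, and no list was tested against that rate. A single call in a list is thus a value of that gene. In each list from the collagens to the growth factors, 0 or 1 genes were called without WT replicate 1 or 2, and more were called without a Stc1-labelled library than with all libraries.

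No gene of the cell cycle list (28 tested, 0 at an unadjusted edgeR p under 0.05) or of the p53 list (24 tested, 4 at that level) was called by edgeR or DESeq2. Of 30 nuclear genes of oxidative phosphorylation edgeR called none (7 at an unadjusted p under 0.05) and DESeq2 3 lower. Without either Stc1-labelled library edgeR called 9 of these 30 lower, 2 p53 genes higher and 2 lower, and 1 cell cycle gene lower.

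The lines also differed from each other. Of 10457 genes at a mean of at least 5 CPM, 252 differed at least 2-fold between line 1 and line 2, against 3 between the WT libraries, and 101 of the 252 lay in shifted neighbourhoods. Nxpe5 and Zfp512 on chromosome 5 were at 14.7 and 9.32 CPM in line 1 and at 0.0138 and 0.0688 in line 2, with WT at 20.8 to 22.2 and 10.2 to 11.7. Armcx3 on the X chromosome was nearly lost in line 2 by itself (0.055 CPM against 8.22 in line 1 and 8.22 and 6.68 in WT). In the opposite direction, Fam107a on chromosome 14 stood at 259 and 256 CPM in WT, 16.2 in line 1 and 225 in line 2, and 48 of its 12763 and 13270 WT genome 2 reads were left in line 1. Serpina6, the corticosteroid-binding globulin gene, lay at 0.403 CPM in line 1 and 20.45 in line 2, and Frem2, a basement membrane protein, at 0.805 and 19.8. Against WT, Frem2 was at log2 -3.90 without line 2 and at 0.72 without line 1. Serpina6 was at log2 -1.30 with both lines and not called (edgeR, adjusted p = 0.731). Each of these genes is a value of 1 line and has no replicate.

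Against the other labels, 310 genes differed between the Pygo1-labelled and Stc1-labelled pairs (1.74% of those tested) and 182 between the Pygo1-labelled and Rlim-labelled pairs (1.02%). Of the 419 genes called against WT, 126 were also called in the same direction against the Stc1 label and 74 against the Rlim label, with 2 in the opposite direction each. These comparisons share the Pygo1-labelled libraries, so the counts are given as a description. Some changes, including those of members of the inflammatory, glycolysis, sterol and ATF4 lists, were not particular to the Pygo1 label. Nos2 reached 122 and 338 CPM under the Stc1 label and 191 and 202 under the Rlim label. Cxcl5 (231 to 420) and Ltbp2 (94.7 to 179) were likewise above WT under both. Sirpa was similarly low under Stc1 (0.111 and 0.12) but above WT under Rlim (52.2 and 54.8). Phyh and Gstm4, by contrast, were called against both labels. Fxyd2 was also called against both, but it was below WT there too. It stood at 8.48 and 8.19 CPM under Stc1 and at 4.34 and 3.88 under Rlim. The cause was not tested.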

How the data were processed

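RNA was extracted with Trizol and prepared with a TruSeq kit, per the labels' protocols. HISAT2 2.0.5, Cufflinks, featureCounts and mm10 are named, without a role, per the submitters' processing notes. The authors deposited raw counts per Ensembl gene for all reads, genome 1 reads and genome 2 reads. The strand setting, the annotation and the tool that split the genomes are not given in the sources used here. Genes that overlap another gene are therefore uncertain, and shares serve to compare libraries with each other. All 24 columns were used. Of 49670 genes, 49411 matched GENCODE M21 (GRCm38) for symbols and coordinates.

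All-read counts of the 8 libraries went through edgeR 4.0.16 in R 4.3.3, with its expression filter, TMM factors and a quasi-likelihood fit of a mean for every label. A call is a p under 0.05 after Benjamini-Hochberg adjustment over all genes tested. Genome 1 and genome 2 counts were fitted alike with the library sizes and factors of all reads. The genome share was tested with a term per library and a genome term per group in genes with at least 20 genome-assigned reads in every library. Genes whose genome sum exceeded all reads in any of the 8 libraries (329) were left out of share and dose. For the classes a gene was not readable where this held in any of the 4 WT and Pygo1-labelled libraries. Standard errors are those of the fitted log2 fold change. Genes that use both genomes had 20 to 80% genome 2 in WT and at least 50 genome-assigned reads in every library. Classes needed 80 such reads over the 4 libraries and added 1 read before log2, and a gene used 1 genome from 90% of WT reads. A place was taken to use both genomes in WT where the median share of the nearest genes lay between 10 and 90%, a definition added after seeing the data. Changes of single lines and chromosome levels added 0.1 CPM before log2.

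Named genes were Pygo1, Pygo2, Bcl9, Bcl9l, Ctnnb1 and Xist; the 12 largest rises and falls in both genomes, and the 6 largest with 1 genome alone or with 1 genome in WT, among called genes at 5 CPM or more with groups apart; up to 4 called members of each of 31 lists by adjusted p; and the 5 per direction that differed most between lines. Predicted genes were passed over. Other list members were named after their values were seen. The members, lists and rules were chosen with earlier results of these data known. The fits were tested on simulated data. Alternatives were DESeq2 1.42.0, other scalings, filters and thresholds, the 4 libraries alone, a replicate term, and each library left out. Figures were drawn with matplotlib 3.10.9.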

Additional observations from a re-analysis of the deposited data

How the results depend on the processing

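The 419 calls in all reads became 1567 by DESeq2, 867 without a filter, 1699 with the WT and Pygo1-labelled libraries alone and 49 at an adjusted p under 0.01. Of the 419, 416, 409 and 419 were also called in the same direction under the first 3 settings. DESeq2 size factors gave 402 calls, each chromosome scaled to WT 462 (349 shared) and each neighbourhood scaled to WT 496 (321 shared). With each library left out in turn the count ran from 8 to 3680. The fit with replicate number as a block called 109, all among the 419. Nothing in the labels pairs the libraries, and the deviations of same-numbered WT and Pygo1-labelled libraries correlated at 0.18 across genes. With the 4 libraries alone, the genome 1 reads gave 2110 calls in place of 1263 and the genome share 1440 in place of 2489. Leaving out a WT or Pygo1-labelled library gave 376 to 1088 calls in genome 1 reads, 591 to 2841 in genome 2 reads and 975 to 4204 in the share. Shifted neighbourhoods numbered 1975 at 20 percentage points and 5573 with neighbours of any WT share, a setting chosen after seeing the data. A 2-fold minimum left 103 of the 155 genes changed in both genomes.

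Values that changed sign had no call in the alternative, and of them only Wls was called as reported. Ctnnb1 was -0.0023 without a filter, -0.0225 with chromosomes scaled, -0.0527 with neighbourhoods scaled, -0.0191 without WT replicate 2, and ran from -0.0461 to 0.0553 without 1 of the lines. Bcl9 was -0.1017 and -0.1006 with chromosomes and neighbourhoods scaled and -0.0693 without line 2, Wls -0.273 with neighbourhoods scaled, and Dchs2 -0.3394 with the replicate block. Dzip1 was 0.0272 and 0.1041 with chromosomes and neighbourhoods scaled, and Gda 0.032 without WT replicate 1. Leaving out 1 of the lines gave -1.8739 to 0.0178 for Pygo1, -7.0439 to 0.1371 for Armcx3, -4.9727 to 0.4732 for Slc25a48, -4.2224 to 0.9091 for Gda, -4.2851 to 0.7144 for Dzip1, -3.9027 to 0.7151 for Frem2 and -2.106 to 1.6002 for Dchs2. The cause was not tested for any of these. Too few reads over parental differences, or a genome sum above all reads, left 47 of the 419 genes unread by genome.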
